A study of Drosophila melanogaster with 3 samples.

Results

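The aquaporin family of Drosophila melanogaster was examined in the late pupal wing through every probe set that carries exactly 1 gene symbol among Prip, Drip, bib, Eglp1, Eglp2, Eglp3 and Eglp4. Of these 7 genes, 4 were measured, by 5 of the 18769 probe sets that are not array controls: Prip by 2 probe sets, and Drip, bib and Eglp2 by 1 each. Eglp1, Eglp3 and Eglp4 were not analysed here. Oregon R pupae kept at 25 C gave wings roughly 80 h after the puparium had formed (80 h APF), with 40 flies to an RNA batch, and each of 3 biological replicates was hybridised to 1 Affymetrix array. All arrays belong to this single group, so there is no contrast between conditions, and the age is approximate because staging went by eye from wing pigmentation. The family was chosen by the signal of Prip, which is among the highest on these arrays, so the values of Prip are a description and carry no test.

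Aquaporins are membrane channels that let water, and in some branches glycerol or urea, cross the membrane along its gradient. In the fly renal tubule Drip and Prip are water channels of the stellate cells, and Eglp2 and Eglp4 belong to the entomoglyceroporins, an insect branch of the family, and are found in the principal cells. The fourth measured gene, bib (big brain), is a neurogenic gene of the family that acts with Notch in the embryo and limits the number of neural precursors. At the stage sampled, wing epidermal cells lay down the adult cuticle, and after eclosion the folded wing is expanded by fluid pressure.

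Values are deposited probe set signals (linear intensity) or their log2. Each array had its own reference level, namely the 95th percentile over 86 genes for odorant receptors, eggshell proteins and male accessory gland proteins, which stood at signals of 111, 109.8 and 96.5 on replicates 1, 2 and 3. A probe set was called above the reference when limma's one-sided moderated test on the log2 signal minus this level gave an adjusted p below 0.05 (Benjamini-Hochberg over all 18769 probe sets). Of all probe sets, 6411 were called (34.2%). Log2 signals of the array pairs correlated with Pearson's r between 0.913 and 0.918 across probe sets. The number of arrays limits the precision, and signals of different probe sets depend on their probes as well as on the transcript, so their order is not an order of transcript abundance.

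Prip, a water channel gene, gave signals of 52266, 49127 and 46272 on replicates 1, 2 and 3 at probe set 1625950_a_at. All 3 arrays were close together, at a mean log2 signal of 15.59 ± 0.09 (SD, n = 3), and this probe set took rank 10, 7 and 10 of all probe sets on the 3 arrays. It stood 8.86 above the reference level on the log2 scale, a 465-fold difference. The suffix _a_at marks, by the maker's naming, a probe set meant to detect several transcripts of 1 gene, and RefSeq lists 4 transcripts of Prip.

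The other Prip probe set, 1630030_at, gave signals of 958, 569 and 755. Its log2 signal was 9.54 ± 0.38 (SD, n = 3), which is 2.82 above the reference level, and its percentile among all probe sets was 85.9, 80.6 and 83.9 on the 3 arrays. Both Prip probe sets therefore lay above the reference on every array, but they differed from each other by 5.77, 6.43 and 5.94 on the log2 scale, a mean of 6.05 ± 0.34 (SD, n = 3) or 66.1-fold. The difference is one between probes of the same gene, and a choice by the higher of the signals favours a large one. No source used here gives the transcripts or exons that each Prip probe set covers.

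**Figure D1:**
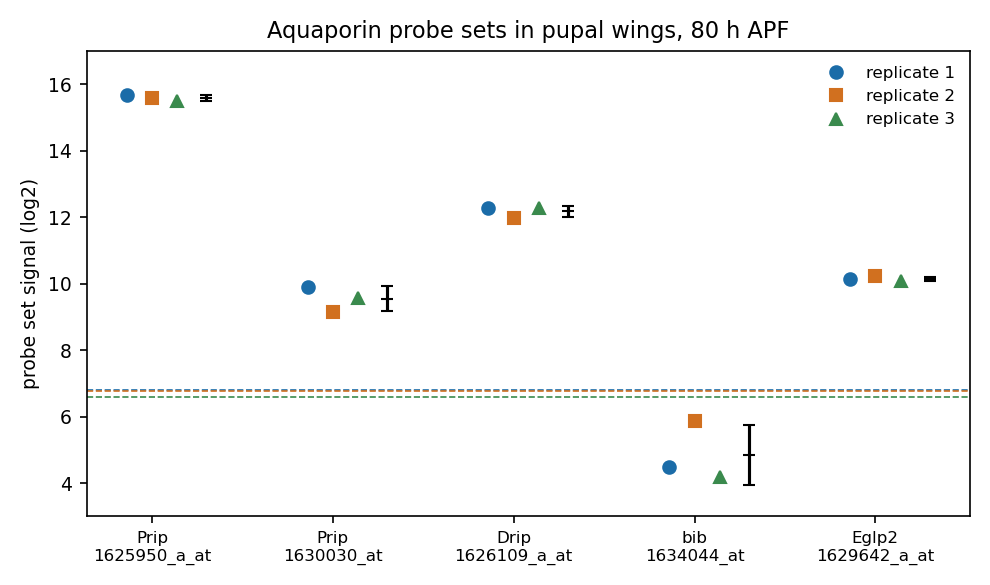
Log2 probe set signal of each aquaporin probe set on the 3 arrays, with the mean and SD (n = 3) as a black bar to the right and the reference level of each array as a dashed line in the colour of the array. Prip 1625950_a_at sits near 15.59, Drip, Eglp2 and the other Prip probe set lie between it and the reference, and bib lies below the reference on all 3 arrays.

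Drip, the other water channel gene of the stellate cells, gave signals of 4966, 4002 and 4911 on replicates 1, 2 and 3. Replicate 2 was the lowest and replicates 1 and 3 were nearly equal, and every value was far above the reference of its array. The log2 signal was 12.17 ± 0.18 (SD, n = 3), at percentiles of 96.0, 95.2 and 95.9. Drip exceeded the reference level by 5.45 ± 0.18 on the log2 scale (limma's moderated SE, n = 3), or 43.6-fold, with a limma adjusted p of 0.000198. A moderated SE draws on the spread of all probe sets as well as on the 3 values. The single Drip probe set, 1626109_a_at, is also of the kind meant for several transcripts, of which RefSeq lists 7.

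Eglp2, the entomoglyceroporin measured here, gave signals of 1119, 1189.8 and 1078 at probe set 1629642_a_at. These were the values with the smallest spread in the family, with a log2 signal of 10.14 ± 0.07 (SD, n = 3), against a median SD of 0.16 over all called probe sets. The excess over the reference level was 3.42 ± 0.15 on the log2 scale (moderated SE, n = 3), or 10.7-fold, with a limma adjusted p of 0.000286. In the RefSeq gene table the span of Eglp2 on chromosome arm 2R overlaps those of Eglp3 and Eglp4, and no source used here gives the exons that the probe set covers, so a contribution of the overlapping genes was not tested.

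The neurogenic gene bib, on arm 2L, gave signals of 22.6, 57.9 and 18.1 at probe set 1634044_at. Replicate 2 was the highest, and all 3 values were below the reference of their array, at differences of -2.30, -0.92 and -2.41 on the log2 scale. The log2 signal was 4.84 ± 0.89 (SD, n = 3), at percentiles of 28.8, 43.6 and 27.4. The mean difference from the reference was -1.88 ± 0.39 (moderated SE, n = 3; limma adjusted p = 1.0 for a level above it). Spread of this size is usual at such signals, since the median SD of probe sets not called was 0.78, and the median deviation of those probe sets from their own means was 0.02, 0.20 and -0.15 on replicates 1, 2 and 3. At this signal a low level of bib transcript could not be told from background.

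Of the 3 probe sets whose signals did not choose the family, those of Drip and Eglp2 were called above the reference and that of bib was not, beside 34.2% of all probe sets. With 3 probe sets this share says little about the family. The Prip probe sets were left out of this share because the signal of Prip chose the family. Alternative settings changed the reference level, the normalization, the variance model, the probe sets kept in the fit or the arrays used. The limma adjusted p ran up to 0.00514 for Drip and 0.00574 for Eglp2 over 11 alternatives, and bib was not called in any of them. Over the same alternatives the excess ran from 4.40 to 5.73 for Drip and from 2.37 to 3.70 for Eglp2 on the log2 scale.

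**Figure D2:**
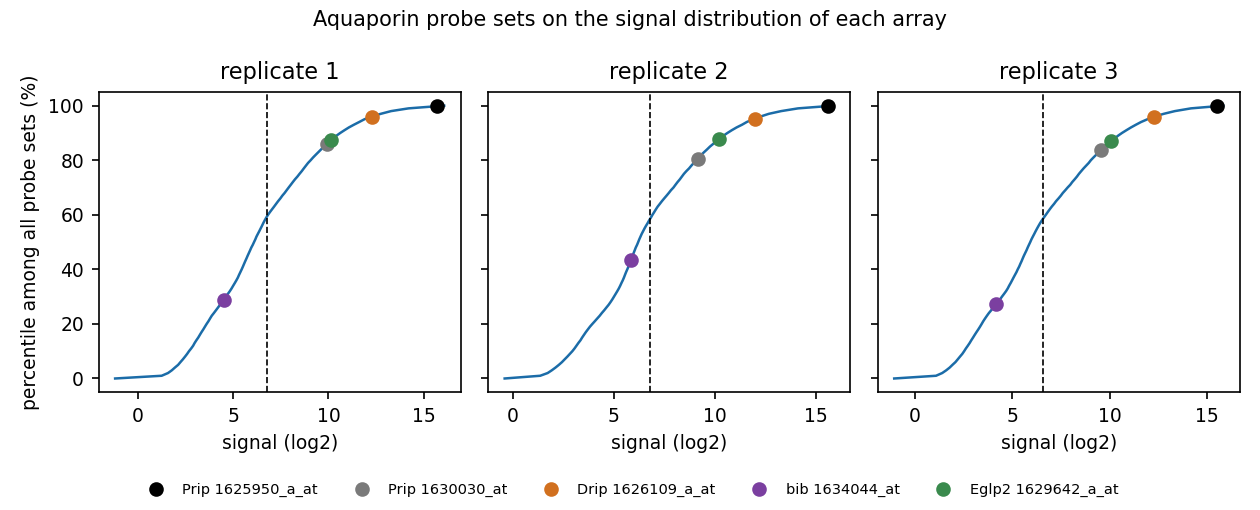
Cumulative distribution of log2 signals over all probe sets on each array (blue line), with the aquaporin probe sets as points and the reference level as a dashed line. Prip 1625950_a_at lies at the top end of each curve, Drip between percentiles 95.2 and 96.0, and bib between 27.4 and 43.6.

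**Figure D3:**
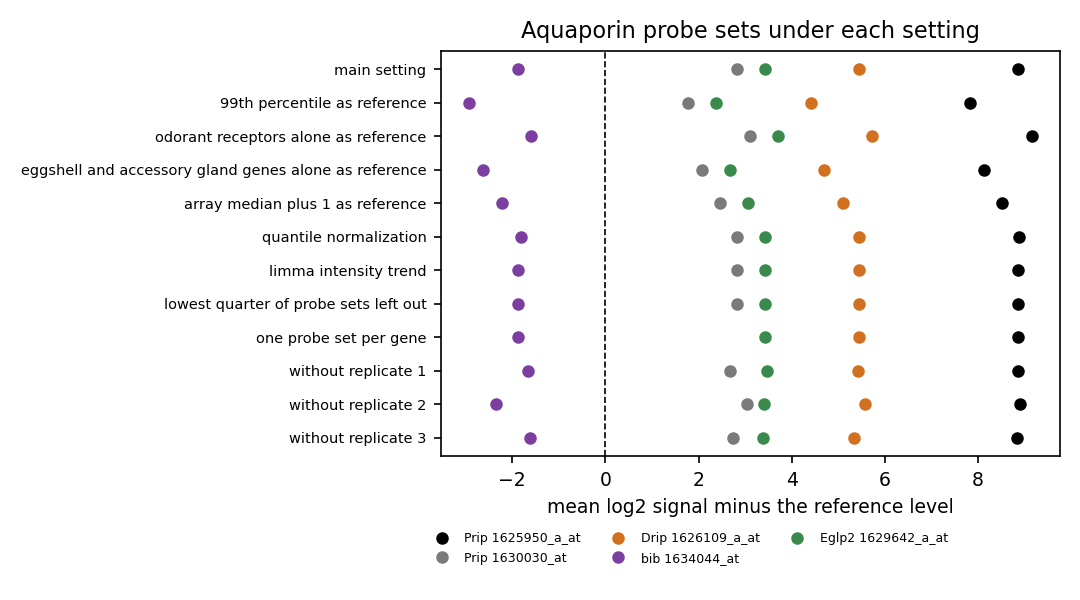
Mean log2 signal minus the reference level (horizontal axis) for each aquaporin probe set under each setting (rows). In every setting that holds the probe set, both Prip probe sets, Drip and Eglp2 stay to the right of 0 and bib to the left.

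The genes with the signals most like those of Prip were described by the root mean square difference in log2 signal from probe set 1625950_a_at over the 3 arrays. They were cib, which encodes an actin-binding protein (0.04), CG17298 (0.06), the cuticle gene Vajk2 (0.10), Jhbp13 (0.12) and CG13231 (0.14). Nearest to Drip were yellow-d2 (0.06), GstE13, a glutathione S-transferase gene (0.06), Arpc2, which encodes a subunit of the actin-nucleating Arp2/3 complex (0.07), Rab10 (0.07) and Yod1 (0.07). Nearest to bib were CG18609 (0.08), Fer3 (0.13), hb (0.13), CG12020 (0.15) and CG8046 (0.15), all at signals below the reference on each array. Likeness of this kind covers 3 arrays of 1 group and says that signals were of similar size, nothing more.

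Apart from bib, the member genes lie in 2 groups on arm 2R of the RefSeq gene table. Drip and Prip are separated by a single protein-coding gene, CG7763, whose span overlaps that of Drip, and Eglp1, Eglp2, Eglp3 and Eglp4 follow each other. The neighbours were looked up after the values were seen. CG7763 had a log2 signal of 9.02 ± 0.23 (SD, n = 3; limma adjusted p = 0.00138), and qvr, on the far side of Prip, had 9.50 ± 0.09 (limma adjusted p = 0.000444). On the far side of Drip, CG34054 was not called (5.24 ± 1.72) and CG30026, the next gene, was (7.69 ± 0.13; limma adjusted p = 0.00713). Beyond Eglp4, retn was not called (4.32 ± 1.95) and Pde8 was (9.14 ± 0.10; limma adjusted p = 0.000787). Around bib, CG31875 (5.10 ± 0.49) and SoYb (6.17 ± 0.78) were not called, and Dref, a transcription factor gene, was (9.04 ± 0.16; limma adjusted p = 0.000945). For Eglp2 the neighbours looked up, CG43209, Eglp1, Eglp3 and Eglp4, had no measured value. The measured neighbours thus held called and uncalled genes alike, beside 44.2% of all genes called.

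Water follows ions and solutes, so genes for ion transport, glycerol metabolism and water balance were counted beside the family. Each gene was taken by its probe set of highest mean, and 5302 of 11982 genes were called in this way (44.2%), with a median log2 difference from the reference of 0.09 over all genes. The lists are short, and their counts are given as a description.

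Of the listed genes of the Na/K pump, which sets up the sodium gradient of epithelia, Atpalpha, JYalpha and CG33310 were not measured. Of the 5 measured subunit genes 3 were called and the median difference from the reference was 3.08. These were the beta subunit genes nrv1 (13.98 ± 0.05, SD, n = 3), nrv2 (11.57 ± 0.16) and nrv3 (9.81 ± 0.10), while CG11703 (3.56 ± 1.37) and CG5250 (4.12 ± 1.51) were not called. Of 6 measured genes of cation-chloride cotransport and its kinases, which leave out the unmeasured Ncc69, 5 were called, with a median of 2.93. Among them were CG10413 (11.59 ± 0.07), Mo25 (11.20 ± 0.09), the kinase gene fray (10.21 ± 0.03) and the potassium-chloride cotransporter gene kcc (9.09 ± 0.21). The exception was NKCC, with signals of 127, 104 and 509 on replicates 1, 2 and 3, so that replicate 3 stood apart (7.56 ± 1.25; limma adjusted p = 0.334).

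Of 9 chloride channel genes 6 were called, with a median of 2.54. They included the bestrophin gene Best2 (13.34 ± 0.13, SD, n = 3), Clic (12.80 ± 0.16), ClC-c (11.15 ± 0.16) and ClC-b (9.68 ± 0.18), whereas SecCl (3.04 ± 0.04), Best3 (4.47 ± 0.92) and Best4 (5.93 ± 0.44) were not called. Of 3 inward rectifier potassium channel genes Irk1 (9.38 ± 0.12) and Irk2 (signals of 245, 275 and 248) were called and Irk3 (5.32 ± 1.39) was not, with a median of 1.27. That count was 1 against the 99th percentile, against a reference without odorant receptors, and where probe sets of a gene were averaged.

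The remaining transport lists had shares near or under that of all genes. Of 7 sodium-proton and bicarbonate exchanger genes 3 were called, with a median of -1.03: Nhe3 (10.67 ± 0.07, SD, n = 3), the anion exchanger gene Ae2 (10.42 ± 0.41) and Nhe1 (9.36 ± 0.19), and not Nha1 (2.78 ± 0.47) or Nhe2 (3.45 ± 1.59). Of 13 carbonic anhydrase genes, whose products interconvert carbon dioxide and bicarbonate, CAH1 (10.66 ± 1.06), CAH3 (9.52 ± 0.03) and CAH9 (9.19 ± 0.67) were called, with a median of -1.64 over the list and CAH13 lowest (1.79 ± 0.42). Glycerol is a possible cargo of the entomoglyceroporins, and of 9 genes of its metabolism Gpdh1, a glycerol-3-phosphate dehydrogenase gene (12.20 ± 0.19), and the glycerol kinase gene Gk1 (9.22 ± 0.13) were called, with a median of -0.49. Gpdh2 (3.38 ± 0.44) and Gpo3 (4.86 ± 1.64) were not.

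Of 5 measured receptor genes for hormones of water balance and wing expansion only rk was called (10.32 ± 0.14, SD, n = 3; limma adjusted p = 0.000357), and the median was -1.54. This gene encodes the receptor of bursicon, the hormone of wing expansion and tanning. The receptor genes of the diuretic hormones, Dh44-R1 (3.58 ± 0.81) and Dh31-R (4.26 ± 0.20), and of leucokinin, Lkr (5.18 ± 0.72), were not called. Beside bib, which was not called, 4 of 4 measured neurogenic and Notch-linked genes were, with a median of 2.40: Delta (9.87 ± 0.25), H (9.65 ± 0.24), mam (8.59 ± 0.07) and neur (8.51 ± 0.18). From this list N, Su(H), E(spl)m8-HLH and E(spl)mgamma-HLH were not measured.

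The labelled tissue was set beside markers. The lists were chosen with earlier results of these data known, so their counts describe the arrays and are no independent check. All 8 wing epidermis markers were called, beside 44.2% of all genes. Among them were nub (12.96 ± 0.05, SD, n = 3), salm (12.98 ± 0.04), ap (11.40 ± 0.26) and bs (11.22 ± 0.05). The summed signal of the 8 markers ran from 23606 to 25082 over the arrays. Because Drip and Prip mark stellate cells in the renal tubule, markers of that cell type were counted too. Of 5 stellate cell markers only the chloride channel gene ClC-a was called (7.33 ± 0.33; limma adjusted p = 0.0437), and it lost that call without any 1 of the 3 replicates. The defining factors tsh and tio were at 4.10 ± 0.59 and 2.91 ± 1.96, SecCl was at 3.04 ± 0.04, and the summed signal of the list ran from 171 to 287. Of 5 measured principal cell markers Best2 and Irk2 were called and NaPi-T (2.98 ± 0.43), ZnT35C (5.97 ± 0.29) and ct (7.17 ± 0.26) were not. Their summed signal ran from 10182 to 11990.2, nearly all of it from Best2, and the markers Uro and CapaR were not measured.

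Other cells that a dissected wing can hold gave mixed counts. Of 5 measured trachea markers Gasp, serp, verm and pio were called, all of which cuticle-forming epidermis also uses. The tracheal receptor gene btl was not called (2.74 ± 1.12, SD, n = 3). The summed signal of the list ran from 39564 to 46685, most of it from pio and Gasp. Haemocyte markers were called in 3 of 6 cases, with crq at 11.90 ± 0.17, Ppn at 11.31 ± 0.07 and NimC1 at 7.68 ± 0.14. Not called were Hml (4.97 ± 1.18), He (5.38 ± 1.67) and srp (5.96 ± 0.75), and the sum ran from 6249 to 7339. Muscle markers were called in 3 of 5, with sls at 13.32 ± 0.27, Act88F at 8.93 ± 0.50 and fln at 8.18 ± 0.51. Not called were up (4.99 ± 1.19) and TpnC4 (6.26 ± 0.12). The sum ran from 8974 to 13001, most of it from sls. Fat body markers were called in 3 of 6, with apolpp at 9.36 ± 0.24, Lsp2 at 8.88 ± 0.28 and Fbp1 at 7.71 ± 0.04. Those not called were Yp1 (3.41 ± 2.15), Yp2 (3.12 ± 1.22) and Yp3 (3.09 ± 0.11), and the sum ran from 1245 to 1633. Glia markers were called in 3 of 4, with gcm (2.97 ± 1.27) not called and a sum from 4959 to 5844. The highest was nrv2, also counted above as a Na/K pump gene. Next came moody (11.03 ± 0.34), and repo was at 7.50 ± 0.28 (limma adjusted p = 0.0284). The glia count was 2 in every fit without a replicate and with the array median plus 1 as reference. It was also 2 against the 99th percentile and against a reference without odorant receptors. Neuron markers were called in 2 of 6, Snap25 (9.65 ± 0.21) and Appl (8.52 ± 0.09), with nSyb (3.07 ± 0.61) not called and a sum from 1652 to 1799.5. The part of these cells in the aquaporin signals was not tested. In whole wings, few cells with much of a transcript and many cells with little cannot be told apart.

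**Figure D4:**
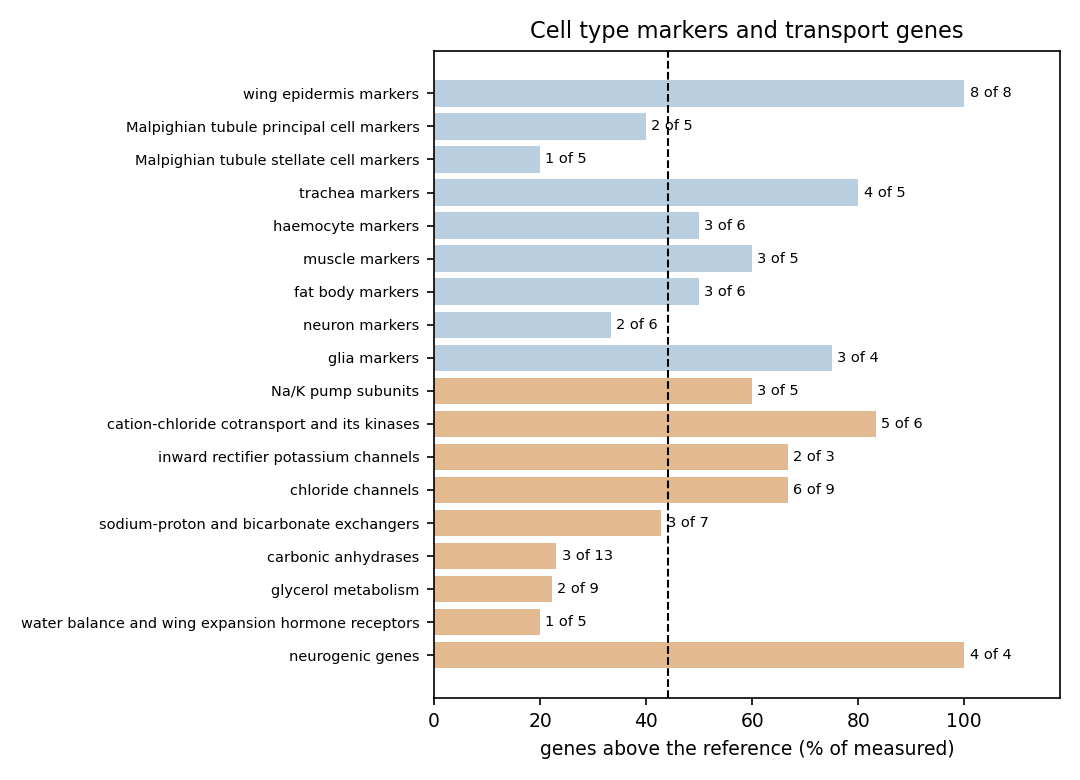
Percent of measured genes called above the reference in each cell type marker list (blue) and each transport or pathway list (orange), with the counts beside the bars and the share of all genes, 44.2%, as a dashed line. Wing epidermis markers reach 8 of 8 and stellate cell markers 1 of 5.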

How the data were processed

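Values were deposited as linear probe set intensity, 1 column for each of 3 arrays. The submitters' processing notes name MAS5 and RMA without versions or the role of either. Per array, the deposited intensity averaged 500.0 once the top and bottom 2% were trimmed, a feature of MAS5 signals. The genome build is not given in the sources used here. Log2 of the deposited signals was taken with no further normalization. Platform annotation gave 1 symbol for 13647 probe sets, several for 402 and none for 4720, beside 183 controls. Symbols were looked up through the entrez identifier in the RefSeq gene table and 0 changed. The negative reference held 56 odorant receptor genes and 30 eggshell or accessory gland genes, each by its probe set of highest mean. Of these 86 genes Fcp3C was called (7.99 ± 0.18, limma adjusted p = 0.00337) and 2 had an unadjusted p below 0.05. The level was set from these same genes, so these counts cannot measure a rate of false calls. The linear model (lmFit and eBayes of limma 3.58.1, R 4.3.3) covered all non-control probe sets, with a prior of 1.5 degrees of freedom and an SD of 0.38. On simulated data with 18769 probe sets, 99 of 100 probe sets set 1 log2 unit above the reference were called, and 0 of 100 set at -0.5. The simulated spread was the median one at each signal level, so these shares do not cover probe sets with a wider spread. Of 128 list entries 111 were measured and the others were not analysed here.

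Named were all member probe sets, per list up to 4 called genes of highest and 3 uncalled genes of lowest mean signal (so uncalled genes just over the reference, such as elav at 0.91 and CAH15 at 0.56 on the log2 scale, go unnamed), and the 5 genes nearest to Prip, Drip and bib. Some uncalled genes within this rule also go unnamed, such as Nha2, CAH14 and brp. The members and lists were chosen with earlier results of these data known. Figures used matplotlib 3.10.9, pandas 2.3.3 and numpy 2.4.6 in Python 3.11.15.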

Additional observations from a re-analysis of the deposited data

How the results depend on the processing

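The calls of Drip and Eglp2, and the lack of one for bib, were the same in all 11 alternatives. The excess of Prip 1625950_a_at and 1630030_at over the reference was 7.82 and 1.77 with the 99th percentile as reference, and 8.11 and 2.07 with a reference of eggshell and accessory gland genes only. For 1625950_a_at it was 9.15 with odorant receptors alone and 8.51 with the array median plus 1. The number of probe sets called ran from 4593 to 6783. The principal cell count of 2 was 1 under these 2 settings (99th percentile, no odorant receptors). Under the same settings, and where probe sets of a gene were averaged, the inward rectifier count was 1. The stellate cell count of 1 was 0 under those 3 settings, with the array median plus 1, and in every fit without a replicate (0 to 0). Neuron markers reached 4 with the limma intensity trend. Of the other list counts, 203 differed by at most 1.5 times. These include falls from 3 to 2 in the glia, haemocyte, muscle and fat body markers. The mean of Prip's probe sets lay 5.84 over the reference. No paired analysis was possible because all arrays belong to 1 group. Signals below the reference have no usable order, and 3 arrays limit every error given.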

Other observations

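Among the genes of ion and bicarbonate transport, a few had 1 array apart from the others. CAH1 gave signals of 1139, 993 and 3765 on replicates 1, 2 and 3, and CAH9 gave 477, 420.4 and 994, so that replicate 3 was the highest for both. NKCC had the same order of arrays. By signal, Prip 1625950_a_at, Prip 1630030_at and Drip were highest on replicate 1, and bib and Eglp2 on replicate 2, with deviations from the mean log2 signal between -0.67 and 1.01 for bib and between -0.39 and 0.37 for the others. Relative to the reference level of each array, replicate 3 was the highest for Prip 1625950_a_at (8.88, 8.80 and 8.91 on the log2 scale on replicates 1, 2 and 3), for Drip (5.48, 5.19 and 5.67) and for Eglp2 (3.33, 3.44 and 3.48). The reference level itself was lowest on replicate 3 (6.80, 6.78 and 6.59), where the signals of Prip 1625950_a_at and Eglp2 were also lowest. Prip 1630030_at was highest on replicate 1 by this measure (3.11, 2.37 and 2.97), and bib on replicate 2.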
